A study of Saccharomyces cerevisiae with 4 samples.

Results

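The sterol synthesis genes and their regulators are 33 genes of Saccharomyces cerevisiae: the enzymes from acetyl-CoA to ergosterol, the proteins that hand them electrons or hold them together, the sterol esterification enzymes, and regulators of the route. Members were taken by name, as probe sets annotated to exactly 1 gene symbol; a gene with several is given by the one of the highest mean. All 33 were found among 5656 genes measured, and 31 lay above background on every array. Transcripts were measured in total RNA on an Affymetrix yeast array, in wild type SEY6210 cells (n = 2 arrays) and in a pmt1 pmt2 mutant of that background (n = 2 arrays). Both strains were grown overnight, diluted and taken in exponential growth, and the design states that each array came from its own biological sample. The part of PMT1 and PMT2 altered in the mutant and the number of mutant clones are not given in the sources used here. PMT1 and PMT2 encode endoplasmic reticulum enzymes that attach mannose to secretory and wall proteins.

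Sterol synthesis in yeast begins with the mevalonate route, in which HMG-CoA reductase is the best known control step, and which also feeds dolichol, the lipid carrier of sugars in the endoplasmic reticulum. Squalene is then made, oxidised and closed into lanosterol, and a series of demethylation, reduction and desaturation steps on the same membrane gives ergosterol, the main sterol of the plasma membrane. Upc2 and Ecm22 are transcription factors that raise many of the ERG genes when sterol is low, and several steps need oxygen and haem.

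Levels are deposited probe set signals in linear intensity units, and a log2 change is the mean log2 signal of pmt1 pmt2 minus that of wild type. Genes were tested with limma over all 5656 genes, and a gene was called at Benjamini-Hochberg adjusted p under 0.05. The label check held. PMT1 measured 1178 and 809 in wild type against 111 and 104 in pmt1 pmt2, and PMT2 measured 2646 and 2771 against 11.9 and 15.5. On the mutant arrays PMT1 stayed above the background given below (26.2), while PMT2 fell under it. Array medians lay between 54.4 and 66.1. Arrays numbered 1 and 2 differed in their controls: actin signal from the tail of the message over that from its start came to 2.99 and 3.15 on the former and to 1.38 and 1.32 on the latter. The median signal of 9 spiked-in control probe sets was 308 and 331 on the arrays numbered 1, and 154 and 173 on those numbered 2. Log2 changes are therefore also given within each array number. As background served the brightest (26.2) of 19 controls against transcripts foreign to yeast. Of 4 alpha-cell markers, all 4 lay above background on every array, and of 6 a-cell markers 4 lay at or below it on every array. The summed alpha-cell signal was 14778 to 16026 in wild type and 9583 to 9877 in pmt1 pmt2. For the a-cell markers the sum was 166 to 180 and 75.8 to 87.5. The lower a-cell sum came from MFA2, at 126 and 96.0 in wild type against 12.1 and 20.5 in pmt1 pmt2. MFA1, the other a-cell marker above background on any array, measured 24.6 and 38.8 against 43.8 and 30.3. The part of these shifts in the values below was not tested.

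No transcript of the sterol route passed the test between the strains, and most mean log2 changes were small, with wide intervals. None of the 33 genes was called (0 higher and 0 lower, against 0.283% and 0.106% of all genes), and 0 had limma p under 0.05 before adjustment, against 5.37% of all genes higher and 1.8% lower. When the replicate block (array number) was added, again 0 members were called, where 2.32% of all genes were higher and 0.707% lower. In bulk RNA, fewer cells with a transcript and less of it per cell cannot be told apart. The median log2 change of the 33 genes was −0.07, beside 0.03 for all genes. Within the arrays numbered 1 and 2 it was −0.24 and 0.03, beside −0.15 and 0.21 for all genes, so the members lay below the median gene within both numbers. Below 0 lay 23 of the 33 log2 changes and above 0 the other 10, where 47.5% of all genes were below and 52.5% above. This split rested on the arrays used: without pmt1 pmt2 array 1 it was 11 below and 22 above, and without pmt1 pmt2 array 2 it was 26 below and 7 above. Of the 10, ERG7, ERG8 and ERG10 turned below 0 when each array was centred on its median.

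The changes of the sterol genes were also narrower than those of the array as a whole. The log2 changes ran from −0.72 for ERG28 to 0.30 for ERG9. In 24 of 33 members (72.7%) the change was under 0.25 on the log2 scale, or 1.19-fold, in either direction, beside 43.6% of all genes. Among genes with a mean log2 signal of at least 6, it was 23 of 31 members (74.2%) beside 46.4%. That cut is only a floor and does not match the genes for signal. The median log2 signal of the 33 members was 9.15 to 9.88 on the arrays. Only ERG28 and UPC2 lay beyond 0.5. The median size of the change, sign aside, was 0.13 for the members and 0.30 for all genes. No test of the list was run, and these shares are a description. With 2 arrays a group the intervals stay wide: all 33 limma 95% intervals held 0, and 6 (ERG10, HMG2, ERG20, ERG1, ERG7 and CYB5) lay wholly within 2-fold either way. The upper bound was under 2-fold higher in 22 members and the lower bound above 2-fold lower in 11. For most members the interval thus still held a 2-fold fall. These intervals are from the fit without the replicate block, in which the difference between array numbers counts as spread. For ERG29 the interval ran from −1.56 to 1.42, while the log2 changes within the numbers were −0.06 and −0.07. No interval with the block is given.

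**Figure D1:**
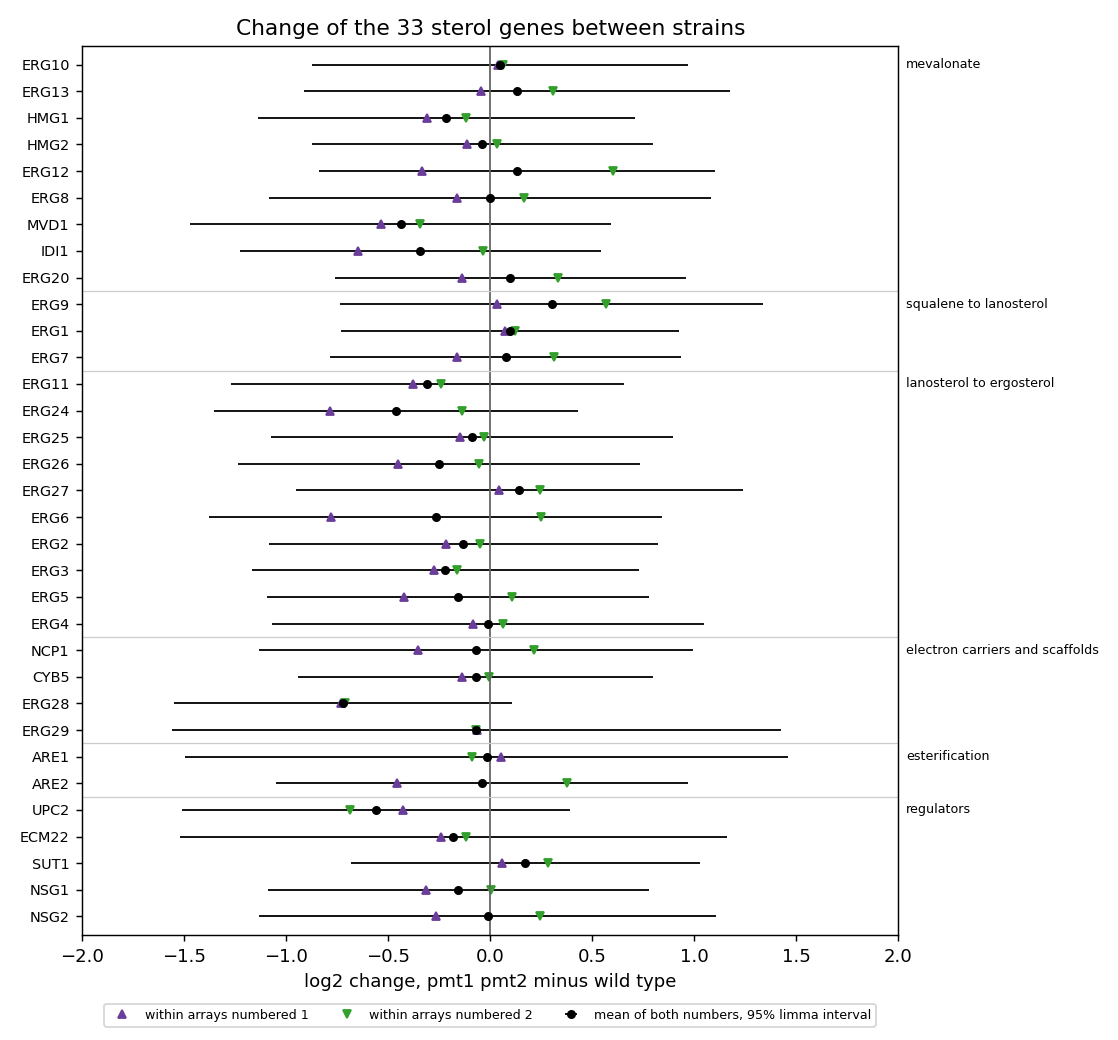
Log2 change of each of the 33 sterol genes (x axis, pmt1 pmt2 minus wild type), in pathway order from the top, with roles at the right. Black points with bars are the means with limma 95% intervals (n = 2 arrays a group), and triangles are the changes within arrays numbered 1 (pointing up) and 2 (pointing down); every interval crosses 0 and ERG28 lies farthest to the left at −0.72.

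In the mevalonate part of the route, the median log2 change of the 9 genes was 0.00 (−0.16 on the arrays numbered 1 and 0.06 on those numbered 2), and the values of the strains interleaved in 8 of them. ERG10 (YPL028W), the acetoacetyl-CoA thiolase that starts the route, measured 1481 and 1967 in wild type cells and 1519 and 2051 in the mutant. The strains matched closely at each array number, with log2 changes of 0.04 and 0.06. ERG13 (YML126C), for HMG-CoA synthase, measured 798 and 1088 against 772 and 1349, with the highest value on pmt1 pmt2 array 2 (log2 change 0.13 ± 0.43 (SE)). Both HMG-CoA reductase genes were measured by their own probe sets. HMG1 (YML075C) measured 2233 and 2792 in wild type cells and 1799 and 2574 in the mutant. Its mutant values were lower at both numbers (log2 changes −0.31 and −0.12) while the groups overlapped, and the overall change was −0.21 ± 0.38 (SE, limma adjusted p = 0.994). HMG2 (YLR450W), the isozyme whose protein is degraded in response to sterol pathway products, measured 749.7 and 646.9 against 693.6 and 661.6. Both mutant values lay between the wild type ones (log2 change −0.04, interval −0.88 to 0.80).

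Among the kinases and later mevalonate enzymes, MVD1 and IDI1 had the lowest log2 changes. ERG12 (YMR208W), for mevalonate kinase, had 4 probe sets. The one used measured 206 and 127 in wild type cells and 163 and 193 in the mutant, with no order between the strains. The log2 changes of the 4 probe sets were 0.13, 0.03, 0.62 and 0.55, the largest on the sets measuring 70.3 and 126 against 72.4 and 288.5, and 61.3 and 45.8 against 55.1 and 108.5. On these the difference lay on pmt1 pmt2 array 2, since within the arrays numbered 1 they gave 0.04 and −0.15. ERG8 (YMR220W), for phosphomevalonate kinase, measured 742 ± 192 (SD) in wild type cells and 762.5 ± 312 in the mutant, a log2 change of 0.00. MVD1 (YNR043W), for mevalonate pyrophosphate decarboxylase, measured 824.5 and 1192 against 569 and 939. The groups overlapped, but the mutant was lower within both numbers (−0.53 and −0.34, overall −0.44 ± 0.42 (SE), limma adjusted p = 0.994). IDI1 (YPL117C), the isomerase that makes dimethylallyl diphosphate, measured 232 and 203 against 148 and 198. Its groups did not overlap, yet the gap came from array number 1 (log2 changes −0.65 and −0.04). ERG20 (YJL167W), the farnesyl pyrophosphate synthase at the branch to dolichol, haem A and ubiquinone, measured 1443 ± 247 (SD) and 1535 ± 89.7.

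The steps from farnesyl pyrophosphate to lanosterol had log2 changes above 0 in all 3 genes, with a median of 0.10. ERG9 (YHR190W), for squalene synthase, the first step given to sterols alone, measured 548 and 684 in wild type cells and 562 and 1014 in the mutant. The high value was the mutant array numbered 2, and the log2 changes within the numbers were 0.04 and 0.57 (overall 0.30 ± 0.43 (SE), limma adjusted p = 0.994). ERG1 (YGR175C), the oxygen-using squalene epoxidase, measured 1184 and 1244 against 1244 and 1353, close to equal on all arrays (log2 change 0.10, interval −0.73 to 0.92). ERG7 (YHR072W), for lanosterol synthase, measured 375 and 337 against 335 and 419, with the mutant values on both sides of wild type.

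The 10 enzymes that turn lanosterol into ergosterol had the lowest median of the 6 role groups, −0.19 (−0.33 and −0.04 within the array numbers), and 9 of them had a log2 change below 0. ERG11 (YHR007C), the lanosterol demethylase that azole drugs inhibit, measured 5832 and 3913 in wild type cells and 4487 and 3315 in the mutant. The groups overlapped, and the mutant was lower within both numbers (−0.38 and −0.24, overall −0.31 ± 0.40 (SE), limma adjusted p = 0.994). ERG24 (YNL280C), the sterol reductase of the next step, measured 520.5 and 459 against 301.5 and 417.5. All wild type values exceeded all mutant values, with log2 changes of −0.79 and −0.14 within the numbers (overall −0.46 ± 0.37 (SE), limma adjusted p = 0.974).

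The demethylation at carbon C-4 is carried out by Erg25, Erg26 and Erg27 on the scaffold protein Erg28, and the genes of these proteins differed in their values. ERG25 (YGR060W), the oxidase, measured 5804 and 3819 in wild type cells and 5237 and 3735 in the mutant, so that the array number and not the strain set the order. ERG26 (YGL001C), the decarboxylating dehydrogenase, measured 371 and 462 against 271 and 445, overlapping but lower in the mutant at each number. ERG27 (YLR100W), the keto reductase, measured 648 and 1005 against 668 and 1188.5, the only enzyme of the 10 with a log2 change above 0 (0.14 ± 0.45 (SE)). ERG28 (YER044C), the scaffold, measured 804 and 734 in wild type cells and 484 and 448.5 in the mutant. It was the member farthest from its wild type level, 1.65-fold lower, with well-separated groups and nearly the same log2 change within each array number (−0.73 and −0.71). The overall log2 change was −0.72 ± 0.34 (SE, interval −1.55 to 0.11). Its limma adjusted p was 0.792, or 0.204 with the replicate block, so ERG28 did not pass under either fit. Before adjustment it was the only member that passed with the block, where 11% of all genes passed as higher and 6.98% as lower. By limma p it ranked 554 among the 5656 genes.

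In the last steps of the route the array number difference, averaged over strains, exceeded the strain difference. In ERG6 and ERG5 it lay mainly between the mutant arrays (log2 differences of 1.07 and 0.64, against 0.04 and 0.11 in wild type). ERG6 (YML008C), the methyltransferase that marks fungal sterols, measured 1233 and 1267.5 in wild type cells and 717 and 1507 in the mutant. Its mutant arrays lay on opposite sides of wild type, with log2 changes of −0.78 and 0.25. ERG2 (YMR202W), for sterol isomerase, measured 3496 ± 683 (SD) and 3219 ± 881. ERG3 (YLR056W), the first desaturase, measured 2664 and 3561 against 2202 and 3178, overlapping, with log2 changes of −0.27 and −0.16 within the numbers. ERG5 (YMR015C), the second desaturase, measured 803 ± 44.7 (SD) and 737 ± 228, and ERG4 (YGL012W), the final reductase, 1083 ± 314 and 1088 ± 390. The oxygen-using enzymes ERG1, ERG11, ERG25, ERG3 and ERG5 together had a median log2 change of −0.16 over a range of −0.31 to 0.10.

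Among electron carriers and accessory proteins other than ERG28, the strains overlapped. NCP1 (YHR042W), the reductase that feeds electrons to Erg11 and other sterol enzymes, measured 2434 and 1297 in wild type cells and 1903 and 1503 in the mutant, with both mutant values between the wild type ones. CYB5 (YNL111C), for cytochrome b5, measured 381 and 444 against 346 and 443 (log2 change −0.07, interval −0.94 to 0.80). ERG29 (YMR134W), an endoplasmic reticulum protein needed for sterol synthesis, measured 193 and 80.6 against 184.5 and 76.7. The signal was 2.40-fold higher on the arrays numbered 1, and the strains differed by −0.06 and −0.07 on the log2 scale within the numbers.

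**Figure D2:**
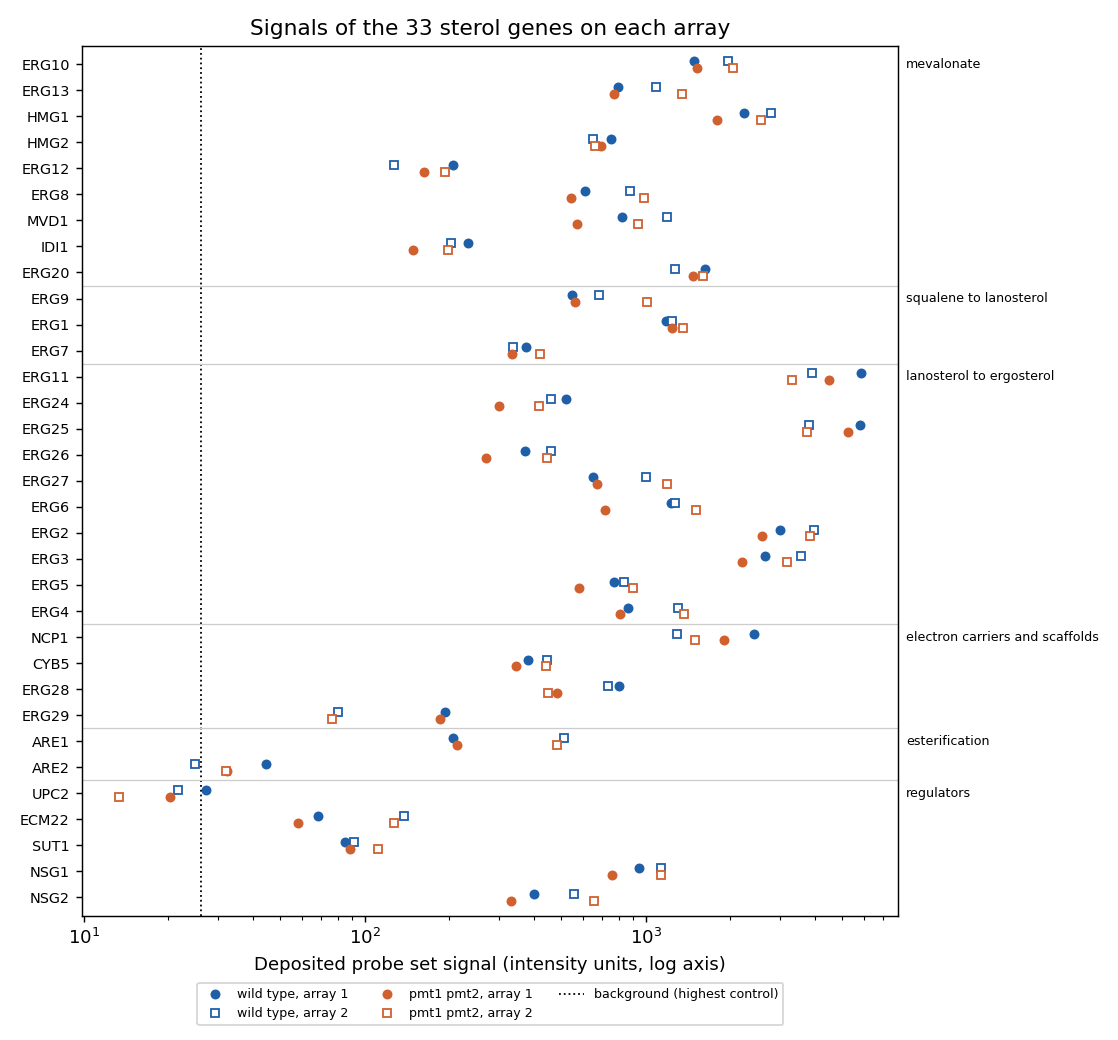
Deposited signal of each sterol gene (x axis, intensity units, log axis) on the 4 arrays, with wild type in blue and pmt1 pmt2 in orange, arrays numbered 1 as filled circles and arrays numbered 2 as open squares; the dotted line is background at 26.2. Signals of different genes come from different probe sets and are not comparable; ERG28 shows both mutant arrays (484 and 448.5) below both wild type arrays, while ERG29 and ARE1 separate by array number.

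The sterol acyltransferases Are1 and Are2 store sterol as esters in lipid droplets. ARE1 (YCR048W) measured 206 and 513 in wild type cells and 214 and 481 in the mutant, so the order followed the array number (2.37-fold higher on number 2), with log2 changes of 0.06 and −0.09 between strains. ARE2 (YNR019W), the main enzyme for ergosterol, gave a dim signal of 44.5 and 24.8 against 32.4 and 32.2. One wild type array lay under background, and the mutant values lay between those of wild type.

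Of the 5 regulators, 4 had a log2 change below 0 (median −0.16), and the groups overlapped in 4. UPC2 (YDR213W) measured 27.3 and 21.6 in wild type cells and 20.3 and 13.4 in the mutant. Although the groups did not overlap, both group means were under background and only 1 array was above it, so no fold is given. Its paralogue ECM22 (YLR228C) measured 68.4 and 138 against 57.8 and 127, with a 2.11-fold difference between array numbers and log2 changes of −0.24 and −0.12 between strains. SUT1 (YGL162W), a transcription factor linked to sterol uptake, measured 85.1 and 91.2 against 88.6 and 111, overlapping (log2 change 0.17 ± 0.35 (SE)). The genes of the INSIG homologues Nsg1 and Nsg2, which stabilise Hmg2, had mean log2 changes of −0.16 and −0.01. Their limma intervals were wide (−1.09 to 0.78 and −1.13 to 1.11). NSG1 (YHR133C) measured 943 and 1132 against 758 and 1134, and NSG2 (YNL156C) measured 399 and 553.5 against 331.5 and 655.5. For both, the mutant was lower at number 1 (−0.32 and −0.27) and level or higher at number 2 (0.003 and 0.24).

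In all, the groups did not overlap in 4 of the 33 genes, IDI1, ERG24, ERG28 and UPC2, each lower in pmt1 pmt2, and in 0 with the mutant higher. Over all genes these shares were 14.7% lower and 18.5% higher, so the lower count is near the background. The change had the same sign within both numbers in 19 members, 14 lower (31% of all genes) and 5 higher (31.9% of all genes). At least 2-fold within both numbers was reached by 0 members, against 3.31% of all genes higher and 1.54% lower. Leaving out each array in turn kept a log2 change below 0 in MVD1, IDI1, ERG11, ERG24, ERG28 and UPC2 and above 0 in ERG1 and SUT1, while 25 members turned sign in at least 1 of the 4 fits. ERG28 moved least among the lower genes, from −0.79 to −0.66. Without pmt1 pmt2 array 1 the median of the members was 0.15 (all genes 0.24) and without pmt1 pmt2 array 2 it was −0.27 (all genes −0.14).

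For most sterol genes the difference between array numbers was larger than that between strains. The log2 difference between numbers, averaged over strains, exceeded the strain difference in 29 of 33 members (87.9%), where it did so in 59.3% of all genes. The exceptions were IDI1, ERG24, ERG28 and UPC2, the same genes whose groups did not overlap, and groups that do not overlap always give this outcome. In IDI1 and ERG24 the number differences had opposite signs in the strains, so their mean is small. They were −0.19 in wild type and 0.42 in the mutant for IDI1, and −0.18 and 0.47 for ERG24. The median size of the number difference was 0.47 for the members and 0.42 for all genes while that of the strain difference was 0.13 and 0.30. It reached 2-fold in ERG29, ARE1 and ECM22. In 23 members the arrays numbered 2 were higher and in 10 lower. These differences move with both the actin control ratio and the spiked-in control signal given above, which cannot be told apart here. What sets the numbers apart was not tested.

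**Figure D3:**
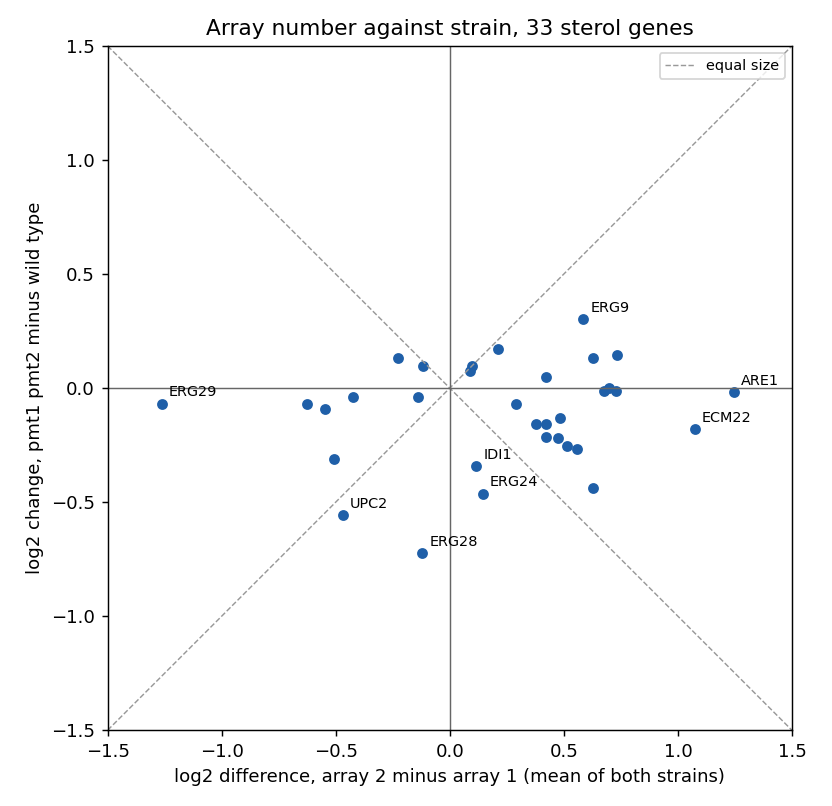
Log2 difference between arrays numbered 2 and 1 (x axis, mean of both strains) against the log2 change between strains (y axis, pmt1 pmt2 minus wild type) for the 33 sterol genes; dashed lines mark equal size. The points spread along the x axis, to ERG29 at −1.26 and ARE1 at 1.24, and only IDI1, ERG24, ERG28 and UPC2 lie in the lower sector where the strain difference is the larger.

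Genes around the route were read from 7 lists chosen with earlier results of these data known. Among their 59 genes 0 were called, where 0.283% of all genes were called higher and 0.106% lower. With the replicate block 1 was called, where 2.32% of all genes were higher and 0.707% lower. Neither count sets the lists apart from all genes. In the 18 sterol transfer genes (median log2 change 0.28) the secreted sterol-binding proteins stood out. PRY2 (YKR013W) measured 1064 and 1585 in wild type cells and 4967 and 6237 in the mutant. The groups were far apart, 4.29-fold, with log2 changes of 2.22 and 1.98 within the numbers (adjusted p = 0.152 by limma, 0.00995 once the block was added). PRY1 (YJL079C) measured 567 and 852 against 1108 and 2158 (log2 change 1.15 ± 0.47 (SE), limma adjusted p = 0.691). OSH2 (YDL019C), an oxysterol-binding protein homologue, measured 293 ± 43.0 (SD) and 189 ± 80.6.

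In the other lists no gene had a log2 change as large as that of PRY1 or PRY2. Of 4 genes of sterol uptake and acetylation (median 0.17), the sterol acetyltransferase gene ATF2 measured 193 and 299 in wild type cells and 98.1 and 172 in the mutant (limma adjusted p = 0.834). In 5 genes of acetyl-CoA supply and cytochrome b5 reduction (median 0.14), MCR1 measured 264 and 268 against 396.5 and 671 (limma adjusted p = 0.723). Of 7 genes that degrade sterol enzymes (median 0.28), HRD1, the ubiquitin ligase for Hmg2, measured 64.6 and 63.3 against 89.4 and 155, and DFM1, a membrane factor of the same pathway, 319 and 442 against 499 and 942.5 (limma adjusted p = 0.775 and 0.846). The 3 steryl ester hydrolases had a median of 0.14, the 13 genes of isoprenoid branches 0.14 and the 9 oxygen and haem regulators 0.15. Within the arrays numbered 1 and 2 the medians of the lists lay between −0.18 and 0.11 and between 0.17 and 0.55.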

How the data were processed

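The authors deposited 1 signal per probe set and array, in linear intensity units with values from 0 to 12590.3. The submitters' processing notes name GCRMA, without version or settings. Zeros and unequal array medians are unusual for GCRMA output, so which summary was deposited and how arrays were scaled are uncertain. This bears on every level and fold given, and signals were used as they stand. Of 9335 probe sets, 6504 named 1 gene, 328 several and 2503 none, leaving 5656 genes, with symbols updated through the R64 gene table. The files name no genome build, so no coordinates are given. Zeros were replaced by 0.1 before the log2 step, and dim genes were kept. The test was limma (version 3.58.1, R 4.3.3), two-sided, with lmFit and eBayes and Benjamini-Hochberg adjustment across the 5656 genes. It was checked on simulated data drawn without a difference between array numbers, so the check does not cover that feature of these arrays. An exact permutation test of 2 against 2 arrays cannot go below p = 0.333.

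The members and lists were chosen with earlier results of these data known. Values on each array were to be given for members with limma p under 0.05, with adjusted p under 0.05 with the block, or 2-fold apart within both array numbers, and for the paralogue pairs of HMG1, ARE1, UPC2 and NSG1. No member met the first conditions, so other genes with array values were chosen after their values were seen. Of each further list, up to 3 genes with the smallest p could be named. Of the strain loci SUC2, URA3, LEU2, HIS3, TRP1 and LYS2, 1 was called (URA3, higher). The labels do not pair the arrays, although both groups carry the numbers 1 and 2. Alternatives were quantile normalization, centring, a minimum mean log2 of 6, log2 values below 4 raised to 4, averaging a gene's probe sets, a mean-variance trend, the replicate block and dropping each array in turn. The number of arrays limits the precision.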

Additional observations from a re-analysis of the deposited data

How the results depend on the processing

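The count of called sterol genes was 0 in every alternative run, the replicate block and the fits without 1 array included; at limma p under 0.05 before adjustment it was 0 or 1. Their median log2 change kept its sign except without pmt1 pmt2 array 1, and ranged from −0.27 to 0.15 when each array was left out in turn. It was −0.10 after quantile normalization and −0.16 after centring, which moved the median of all genes to −0.03 and −0.07. Beyond the fits without 1 array, ERG8 turned to −0.040 after quantile normalization, and ERG10, ERG8 and ERG7 to −0.044, −0.092 and −0.018 after centring. The count of called genes over the whole array was 22, and it became 171 with the replicate block, 38 among genes of mean log2 of at least 6, 14 by centring, 2 by quantile normalization and 1 with low values raised to 4. It ranged from 0 to 62 when each array was left out. Without pmt1 pmt2 array 1 the count was 0 by limma (612 at unadjusted p under 0.05), and a fit without 1 array assumes that the lone array of its group varies like the others. The deviations of arrays with the same number correlated at r = 0.65 over all genes. Over genes with a mean log2 signal of at least 6, which hold 31 of the members, r was 0.83. Genes are not independent replicates. The adjusted p of ERG28 lay between 0.204 (block) and 1 over the alternatives. With each array left out in turn, the log2 change in the mevalonate part ranged for ERG10 from −0.17 to 0.27, ERG13 from −0.27 to 0.53, HMG1 from −0.47 to 0.044, HMG2 from −0.15 to 0.066, ERG12 from −0.22 to 0.48, ERG8 from −0.43 to 0.43 and for ERG20 from −0.077 to 0.27. In the squalene steps it ranged for ERG9 from −0.12 to 0.73 and for ERG7 from −0.088 to 0.24. From lanosterol onward it ranged for ERG25 from −0.39 to 0.21, ERG26 from −0.61 to 0.11, ERG27 from −0.27 to 0.56, ERG6 from −0.80 to 0.27, ERG2 from −0.42 to 0.15, ERG3 from −0.48 to 0.045, ERG5 from −0.48 to 0.16 and for ERG4 from −0.39 to 0.36. Among carriers it ranged for NCP1 from −0.53 to 0.38, CYB5 from −0.25 to 0.11 and for ERG29 from −0.70 to 0.57. For the acyltransferases it ranged for ARE1 from −0.68 to 0.64 and for ARE2 from −0.46 to 0.38. Among regulators it ranged for ECM22 from −0.75 to 0.39, NSG1 from −0.45 to 0.13 and for NSG2 from −0.50 to 0.48.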

Other observations

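None of the 33 sterol genes lies directly beside another member in the R64 gene order, and 8 of them are on chromosome XIII. Among their 66 neighbouring genes, of which 58 were tested, those with a strain difference past adjusted p of 0.05 with the replicate block were PRM1 and AGA1. Over all genes that fit passed 2.32% as higher and 0.707% as lower. PRM1 and AGA1 act in mating and were chosen after their values were seen. PRM1 (YNL279W), beside ERG24, measured 225.5 and 314 in wild type cells and 33.7 and 45.1 in the mutant (limma adjusted p = 0.0746, 0.00287 with the block). AGA1 (YNR044W), beside MVD1, measured 2633 and 2339 against 569 and 540 (limma adjusted p = 0.0998, 0.00825 with the block). ERG24 and MVD1 themselves had log2 changes of −0.46 and −0.44 and were not called. Of the neighbours of ERG28, SAH1 measured 1846 and 1992 against 1614 and 1833. It was slightly lower in the mutant within both numbers (log2 changes −0.19 and −0.12, limma adjusted p = 0.994). MEI4 lay under background on all arrays, so its direction cannot be read.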
